A study of Mus musculus with 9 samples.

Results

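Nuclear receptor signalling by glucocorticoids was read in mouse thyroid through 9 genes: the glucocorticoid receptor gene itself, Nr3c1, and 8 genes widely used as its transcriptional targets, Tsc22d3, Fkbp5, Ddit4, Zbtb16, Klf9, Klf15, Sgk1 and Errfi1. They were picked by name from the 52636 genes of the count table, with earlier results of these data in view, and all 9 were found by Ensembl identifier and symbol. Their unique molecular identifier counts (UMIs, one per captured transcript molecule) were summed per sample and per cell label deposited by the authors. The study profiled dissociated thyroids of male C57BL/6 mice with droplet-based single-cell transcriptomics, 7 days after antibodies had been given against Notch, a pathway in which a ligand on one cell, such as Jag1 or Jag2, activates a Notch receptor on its neighbour. Controls, group RW, received an anti-ragweed isotype antibody at 40 mg/kg. Group aJ1aJ2 received antibodies against both ligands at 20 mg/kg each, and group aN1aN2 received anti-Notch1 at 5 mg/kg with anti-Notch2 at 10 mg/kg. Every mouse had 1 intraperitoneal injection, and the ages given are 10 to 12 weeks in the design text and 10 to 14 weeks in the treatment protocol. Each group had 3 samples, and each sample was a pool of thyroids from 6 mice, so 1 sample stands for a mixture and not for 1 animal. The labels name no genetic alteration.

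The glucocorticoid receptor is held in the cytoplasm by heat shock protein chaperones until it binds a glucocorticoid such as corticosterone, the main adrenal glucocorticoid of the mouse. It then enters the nucleus and binds response elements in DNA, palindromes of a short element, or tethers to other factors. Tsc22d3 encodes GILZ, an anti-inflammatory leucine zipper protein. Fkbp5 encodes an immunophilin that binds the receptor complex and lowers its affinity for hormone. Ddit4 encodes REDD1, an inhibitor of the growth kinase complex mTORC1 that also responds to hypoxia and other stresses. Zbtb16 encodes PLZF, Klf9 and Klf15 encode Krüppel-like transcription factors, Sgk1 encodes a kinase that regulates ion transport, and Errfi1 encodes MIG6, a feedback inhibitor of the EGF receptor. None of the 8 responds to glucocorticoids alone: Sgk1 and Klf9, for example, are also induced by other hormones and stimuli.

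Promoter sequences are shown for 3 targets, the 2 whose windows held the receptor's 6-base element and 1 with a large change and no match, because binding itself was not measured. RefSeq promoter windows (GRCm38.p6) were matched for 7 of the 9 genes, in 15 windows of 250 bases before an annotated start. The palindrome searched was AGAACA, then 3 bases of any kind, then TGTTCT, and the 6-base element was TGTTCT, on both strands, and each palindrome contains the element on each strand. Capitals below mark these letters. The Sgk1 window lies on the plus strand at chr10:21993640-21993889, inside the gene and outside every annotated exon, upstream of an internal start, and its palindrome begins 189 bases before that start. The Tsc22d3 window is printed from chrX:140600660-140600772 on the minus strand, with the 6-base element beginning 185 bases before the start. The Ddit4 window is printed from chr10:59951835-59952020, also on the minus strand. Bases nearer the start that GENCODE gives as exon, 137 for Tsc22d3 and 64 for Ddit4, were left out.
Sgk1: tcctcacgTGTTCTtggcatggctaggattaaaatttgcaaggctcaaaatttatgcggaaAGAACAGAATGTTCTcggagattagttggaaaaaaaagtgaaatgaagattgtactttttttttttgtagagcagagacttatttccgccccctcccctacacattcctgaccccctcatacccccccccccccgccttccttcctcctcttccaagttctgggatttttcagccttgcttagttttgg
Tsc22d3: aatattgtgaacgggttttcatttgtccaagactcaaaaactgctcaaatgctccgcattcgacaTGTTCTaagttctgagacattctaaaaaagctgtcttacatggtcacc
Ddit4: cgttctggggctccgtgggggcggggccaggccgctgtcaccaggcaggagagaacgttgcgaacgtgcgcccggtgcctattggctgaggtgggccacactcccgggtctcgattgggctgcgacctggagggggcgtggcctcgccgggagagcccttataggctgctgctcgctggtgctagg
The full palindrome was found in 3 of 32851 windows of that length across the genome (0.00913%), those of Sgk1, Acnat2 and Gm35041. The 6-base element was found in 16.1% of all windows, and in 4 of the 15 windows of these genes, 3 of Sgk1 and 1 of Tsc22d3. A match describes letters and not binding, and windows further away were not searched.

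The table held 10186 cells, 63121420 UMIs and 16 cell labels, with 3013324 to 11880793 UMIs per sample. The 3 aN1aN2 samples stood apart: median UMIs per cell were 2098 to 2237, against 2823 to 4149 in the other 6 samples, and median mitochondrial shares were 3.42 to 4.52%, against 5.33 to 9.24%. Internal numbers in the sample titles fall into 3 ranges, called series here. RW 3 and aJ1aJ2 1 belong to series A. Series B is made up of RW 1 and 2 together with aJ1aJ2 3 and 4. Every aN1aN2 sample, and nothing else, is in series C, so the receptor blockade and that series cannot be told apart in any result below. Levels are in CPM, the UMIs of a gene relative to all UMIs of its sum, scaled by edgeR's TMM factor, and are listed in the order RW 1, 2, 3, then aJ1aJ2 1, 3, 4, then aN1aN2 1, 2, 3. Sums of under 20 cells were left out, which removed RW 3 and aJ1aJ2 1 from label EC2 and aJ1aJ2 1 from EC3. Only 15 barcodes of 10171 occurred in more than 1 library.

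The labels are not spelled out in the files, and their marker genes were checked. Th1 carried summed thyrocyte markers (thyroglobulin and 8 others) of 85030.3 to 122049.8 CPM in every sample. EC1 and EC4 carried 10752 to 16119.6 CPM of 7 endothelial markers, and EC2 and EC3 carried 4543 to 7982 CPM. F carried 28795 to 44889.6 CPM of 6 fibroblast markers. Th3 was mixed: it held thyrocyte markers at 33519 to 126081 CPM, C cell markers at up to 74291 CPM and skeletal muscle markers at up to 109429.6 CPM in single samples. Eryth1 and Eryth2 were erythroid, and the labels M, S, SM, T1 and T2 led with macrophage, Schwann, smooth muscle and T cell markers.

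All 9 genes were detected, but at different depth. Tsc22d3 had 14148 UMIs in total and was seen in 39.7% of cells, Klf9 had 12050 (36.6%), Sgk1 7724 (24.4%), Nr3c1 6353 (28.7%), Ddit4 3238 (15.8%), Fkbp5 2980 (16.5%), Errfi1 2831 (12.0%), Zbtb16 1796 (10.6%) and Klf15 834 (5.77%). Statements on Klf15 and Zbtb16 therefore rest on the fewest molecules.

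In control thyroids the receptor gene Nr3c1 was present in every label outside the erythroid ones. Its mean RW level was highest in the endothelial label EC4 (249 ± 77.4 CPM, SD, n = 3), followed by EC1 (212 ± 8.504), F (199 ± 22.2), EC2 (171 ± 14.7, n = 2) and EC3 (163 ± 23.5), and neighbours in this order overlapped. A gap without overlap separated EC3 from T1 (93.5 ± 35.5), M (87.0 ± 16.6), S (80.2 ± 46.9, n = 2) and the thyrocyte label Th1 (74.8 ± 7.46). Th3 followed at 30.0 ± 6.57, below every Th1 sample, and Eryth1 and Eryth2 averaged 2.22 and 0.515 CPM.

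The target genes had different control patterns over these 12 labels, those with at least 2 RW samples kept. Tsc22d3 was highest in EC1 (523 ± 81.1 CPM) and EC4 (509 ± 195), which overlapped, then EC2 (266 ± 5.55, n = 2), and its Th1 mean of 43.0 ± 8.60 was the lowest of these outside the erythroid labels. Sgk1 was likewise an endothelial transcript in controls, at 534 ± 8.52 in EC1, 397 ± 35.5 in EC2 (n = 2), 288 ± 19.5 in EC4 and 212 ± 67.4 in EC3. EC1 and EC2 each lay above the next label in every sample kept. RW 3 in EC2, left out for its 15 cells, held Sgk1 at 274 CPM before scaling, within the EC4 control range. By the RW samples kept, fibroblasts (F) led for 5 genes: Errfi1 (222 ± 51.4) and Klf15 (18.8 ± 4.43) stood above the other 11 without overlap, while Klf9 (444 ± 112), Fkbp5 (58.6 ± 13.6) and Zbtb16 (40.8 ± 14.2) overlapped with the label that came next. Outside the 12 labels, T2 held Fkbp5 at 139 CPM and SM held Klf9 at 589 CPM in the 1 RW sample kept, and SM held Errfi1 at 217 and 362 CPM before scaling in RW 1 and RW 2, which were left out with 8 and 5 cells. Ddit4 was highest on average in EC2 (132 ± 99.5, n = 2) and EC3 (95.5 ± 13.1). Klf15 had no UMI in RW in EC4, T1, Eryth1 or Eryth2, nor in the 2 RW samples kept in EC2 and the 2 kept in S. Of the RW samples left out there, RW 3 in EC2 held 1 Klf15 UMI in 15 cells and RW 2 in S held 3 in 13 cells. The latter is 72.5 CPM before scaling, above every RW sample in F.

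**Figure D1:**
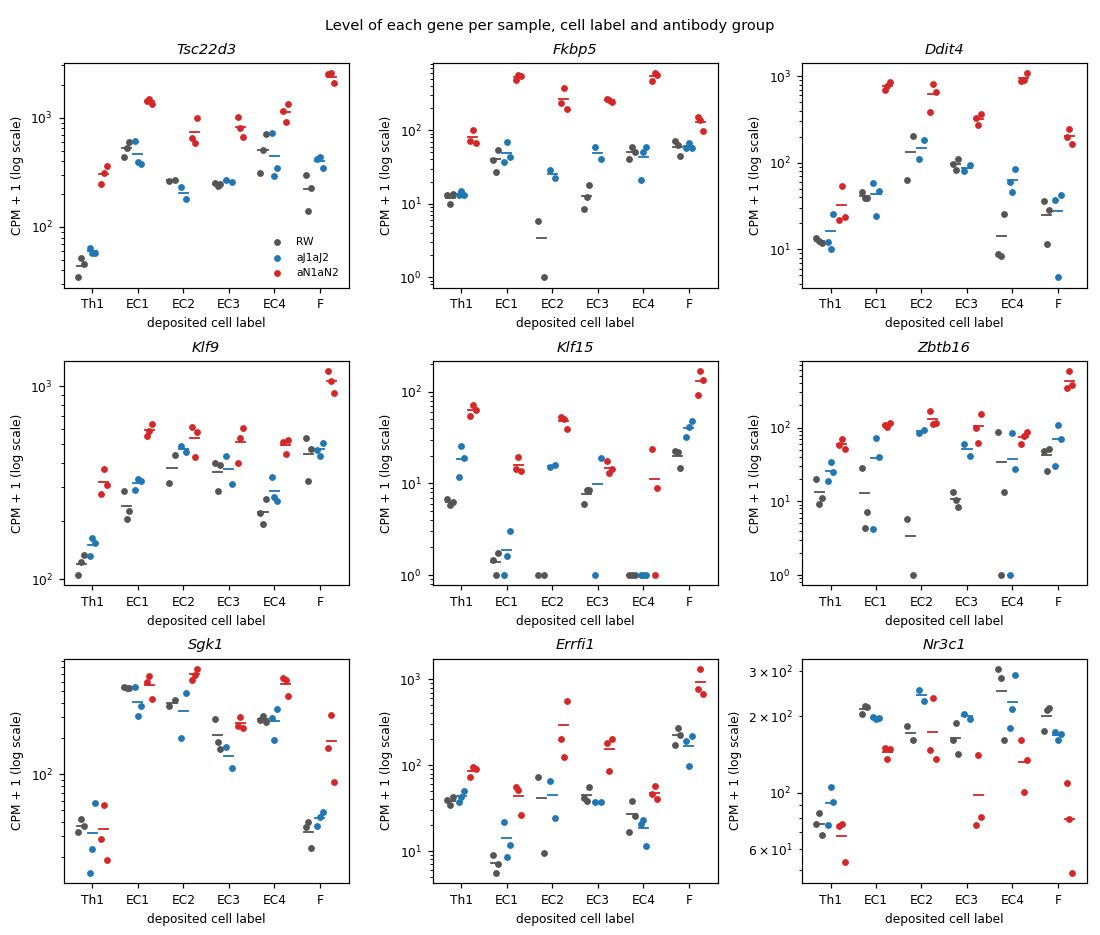
Level of the 9 genes per sample, as CPM + 1 on a log axis, in 6 cell labels (horizontal axis), with grey, blue and red points for RW, aJ1aJ2 and aN1aN2 and short lines for group means. The aN1aN2 points of Tsc22d3, Fkbp5 and Ddit4 lie above all RW points in each of the 6 labels, and those of Nr3c1 lie below them in EC1, EC3, EC4 and F.

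The receptor blockade was compared with the control antibody first. All 8 targets were higher in aN1aN2 than in RW in fibroblasts, and Tsc22d3, Fkbp5 and Ddit4 were higher in all 4 endothelial labels too. In thyrocytes (Th1), where 34.4% of all genes were called, 7 of the 8, all but Sgk1, lay above RW without overlap, as did 23.8% of all genes tested there. The receptor gene Nr3c1 was lower in EC1, EC4 and F. Outside Th1, 43 of 72 pairs of a gene and a label passed edgeR's low-count filter, spread over 6 labels: 32 were higher, 3 were lower and 8 did not pass an adjusted p under 0.05. Over all genes tested in the 8 labels fitted besides Th1, 14.5% were called in this comparison, 7.41% higher and 7.13% lower. In 8 of the 35 calls the gene met the low-count cutoff only through aN1aN2, where it was high, and so had to differ to be tested: Ddit4 in EC4 and F, Fkbp5 in EC2 and EC4, Klf15 in EC1 and F, Errfi1 in EC2 and Tsc22d3 in Th3. Their changes are given without p-values, and the other 27 calls were 24 higher and 3 lower. The genes were chosen with Th1 results of the same libraries in view, so the counts describe them and support nothing further. By label, 7 of 9 tested genes were higher and 1 lower in EC1, where 17.8% of all genes were called. The same counts were 5 and 0 of 8 in EC2 (15.5%), 5 and 0 of 8 in EC3 (5.91%), 5 and 1 of 7 in EC4 (21.1%), 8 and 1 of 9 in F (19.8%) and 2 and 0 of 2 in Th3 (5.03%). Their median log2 change was 2.76 in EC1 and 2.68 in F, where the median of all genes was -0.01 and 0.01. No pair was tested in Eryth1 or Eryth2. Values in Th1 are described without a test throughout.

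**Figure D2:**
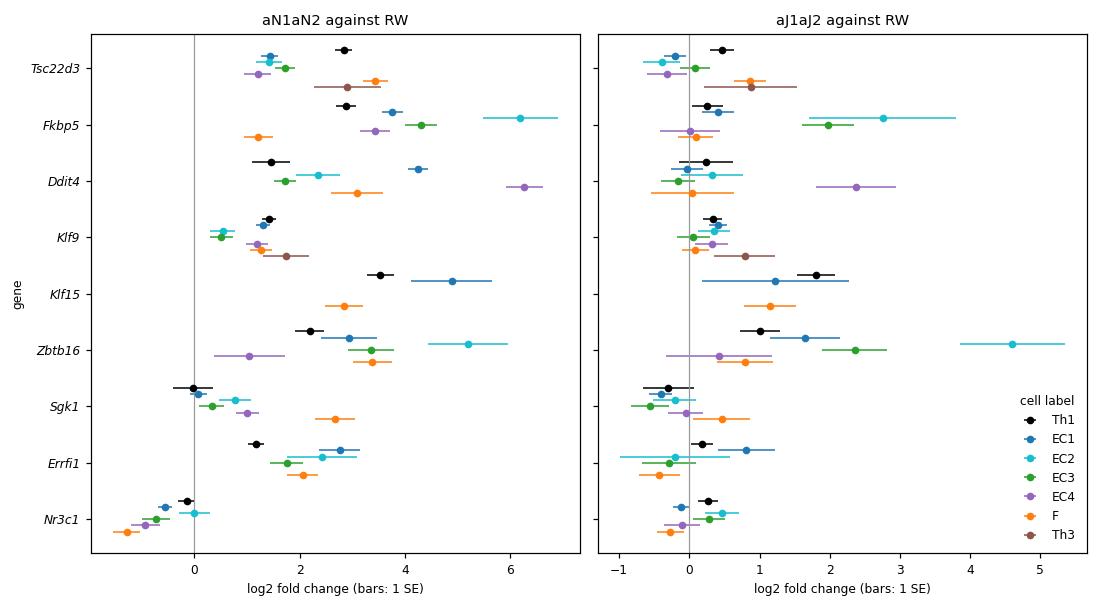
Log2 fold change of each gene (vertical axis) in 7 cell labels (colours), for aN1aN2 against RW on the left and aJ1aJ2 against RW on the right, with bars of 1 SE from edgeR. Most points on the left lie above 0, those of Nr3c1 lie at 0 (EC2) or below, and the points of Fkbp5 and Zbtb16 in EC2 and of Klf15 in EC1 rest on 1 or 2 control UMIs.

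Nr3c1 (ENSMUSG00000024431), the receptor, was lower in aN1aN2 than in RW in EC1, EC4 and F. In EC1 it was at 218, 217 and 203 CPM in RW, 197, 194 and 195 in aJ1aJ2 and 149, 135 and 148 in aN1aN2. All 3 aN1aN2 samples lay below the other 6, the log2 change against RW was -0.56 (SE 0.13, adjusted p = 0.00441) by edgeR's quasi-likelihood test, and that against aJ1aJ2 was -0.44 (SE 0.13, adjusted p = 0.0326). The second call was lost without any 1 of aJ1aJ2 3, aJ1aJ2 4 or the aN1aN2 samples, with adjusted p of 0.0684 to 0.134. It was also lost with DESeq2. In fibroblasts the levels were 209, 215 and 174 CPM in RW, 172, 160.2 and 168 in aJ1aJ2 and 108, 78.1 and 47.6 in aN1aN2. Again the aN1aN2 samples were the 3 lowest, at -1.28 (SE 0.25, adjusted p = 0.00125) against RW and -1.02 (SE 0.25, adjusted p = 0.00816) against aJ1aJ2. EC4 gave 279.9, 161 and 306 CPM in RW, 179, 211 and 289 in aJ1aJ2 and 159, 99.9 and 134 in aN1aN2. There aN1aN2 was lower than RW, with a log2 change of -0.93 (SE 0.27, adjusted p = 0.0143), but the call was lost without RW 1 (0.0698), RW 3 (0.0940) or aN1aN2 2 (0.0826). It was also lost with DESeq2 and with only samples 1 and 2 of RW and aN1aN2, with or without a replicate block. Against aJ1aJ2 the change was -0.82 (SE 0.27, adjusted p = 0.0324), lost without aJ1aJ2 4 (0.286), aN1aN2 2 (0.156) or aN1aN2 3 (0.0840). That call was lost with DESeq2 and with no low-count filter too. EC3 held 187, 141 and 161 CPM in RW against 73.8, 139 and 79.4 in aN1aN2, which did not pass at -0.73 (SE 0.26, adjusted p = 0.123). EC2 gave 0.00 (SE 0.29, adjusted p = 0.999), and Th1, at 82.4, 67.5 and 74.4 CPM in RW, 74.1, 105 and 90.7 in aJ1aJ2 and 72.9, 74.5 and 52.8 in aN1aN2, overlapped between the groups.

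Tsc22d3 (ENSMUSG00000031431, chrX:140539528-140600659, minus strand), the GILZ gene, was higher in aN1aN2 in every label tested against RW. In Th1 it was at 50.6, 44.8 and 33.6 CPM in RW, 63.4, 56.9 and 57.2 in aJ1aJ2 and 247, 313 and 361 in aN1aN2. The lowest aN1aN2 value was far above the highest of the other groups, with a fitted log2 difference from RW of 2.84. Fibroblasts showed 139.6, 226 and 296 CPM in RW, 416, 436 and 346 in aJ1aJ2 and 2487, 2541 and 2056 in aN1aN2. No aN1aN2 sample came near the other 6, and the log2 change was 3.44 (SE 0.24, adjusted p = 2.26e-08) by edgeR. In EC1 the values were 529, 601 and 439 CPM in RW, 609.9, 392 and 374 in aJ1aJ2 and 1426, 1469 and 1329 in aN1aN2, a change of 1.43 (SE 0.16, adjusted p = 8.08e-07) with no overlap. EC2 held 263 and 270.4 CPM in RW, 230.2 and 177 in aJ1aJ2 and 649, 579 and 981 in aN1aN2, a change of 1.42 (SE 0.25, adjusted p = 0.00116). EC3 held 238, 247 and 251 CPM in RW, 268 and 255 in aJ1aJ2 and 1009, 805 and 661 in aN1aN2, a change of 1.72 (SE 0.19, adjusted p = 1.48e-04). In both, every aN1aN2 value exceeded every other. In EC4 RW values were widely spread, at 508, 704 and 313 CPM in RW, 716, 289 and 342 in aJ1aJ2 and 1157, 912 and 1332 in aN1aN2, yet aN1aN2 stayed above them, at 1.21 (SE 0.26, adjusted p = 0.00105). Th3 gave 21.4, 113 and 30.9 CPM in RW, 165, 36.6 and 65.1 in aJ1aJ2 and 427, 299 and 374 in aN1aN2 and 2.91 (SE 0.64), or 2.23 without RW 1 and 3.69 without RW 2, counted as a call except without RW 1, RW 2, RW 3, aJ1aJ2 3, aJ1aJ2 4, aN1aN2 1 or aN1aN2 3. Th3 also held thyrocyte RNA, at the levels given below.

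Fkbp5 (ENSMUSG00000024222, chr17:28399094-28517527, minus strand), whose product restrains the receptor, was higher in aN1aN2 in all 4 endothelial labels and in fibroblasts. EC1 levels were 26.3, 52.5 and 38.2 CPM in RW, 35.5, 68.0 and 42.5 in aJ1aJ2 and 484, 556 and 538 in aN1aN2. The aN1aN2 samples formed a tight group far above the rest, at 3.76 (SE 0.21, adjusted p = 4.38e-11) by edgeR. In EC4 it was at 58.9, 49.4 and 39.2 CPM in RW, 19.9, 50.04 and 57.9 in aJ1aJ2 and 460.2, 593 and 559.7 in aN1aN2, a log2 difference of 3.43 (SE 0.28). EC3 gave 11.2, 16.9 and 7.53 CPM in RW, 57.2 and 39.5 in aJ1aJ2 and 262, 260.4 and 238 in aN1aN2 and 4.31 (SE 0.30, adjusted p = 1.59e-06). The 2 aJ1aJ2 samples kept in EC3 also lay above RW, though below aN1aN2, whereas aJ1aJ2 1, left out for its 17 cells, had 2 UMIs, or 8.10 CPM before scaling, within the RW range. EC2 had 4.77 and 0 CPM in RW, 28.1 and 21.1 in aJ1aJ2 and 230.1, 369 and 192 in aN1aN2. The 2 control samples held 1 UMI together and the aN1aN2 samples 62, a ratio of 88.8 with a 95% counting interval of 15.4 to 3565. RW 3, left out of EC2 for its 15 cells, had 3 UMIs, or 32.9 CPM before scaling. Fibroblasts changed less, at 62.8, 43.4 and 69.5 CPM in RW, 55.9, 66.3 and 56.1 in aJ1aJ2 and 148, 138 and 95.2 in aN1aN2, which was 1.22 (SE 0.28, adjusted p = 0.00390). In Th1 the levels were 8.79, 12.7 and 12.0 CPM in RW, 12.3, 13.8 and 12.1 in aJ1aJ2 and 71.3, 99.7 and 65.9 in aN1aN2, a log2 difference from RW of 2.88 without overlap.

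Ddit4 (ENSMUSG00000020108, chr10:59949669-59951834, minus strand), the REDD1 gene, was higher in aN1aN2 in all 4 endothelial labels and in fibroblasts, with log2 changes of 1.72 to 6.27. In EC4, a label with a median of 1045.5 UMIs per cell, it was at 7.37, 24.7 and 7.84 CPM in RW, 59.6, 44.5 and 84.2 in aJ1aJ2 and 889, 912 and 1080.0 in aN1aN2. The RW samples held few molecules and every aN1aN2 sample far more, at 6.27 (SE 0.36), or 6.86 without RW 2. EC1 gave 38.1, 38.1 and 44.5 CPM in RW, 58.1, 23.3 and 45.9 in aJ1aJ2 and 691, 773 and 853 in aN1aN2 and 4.25 (SE 0.19, adjusted p = 3.55e-12) by edgeR. In neither label did aN1aN2 overlap with another group. In EC2 it was at 62.0 and 203 CPM in RW, 109 and 182 in aJ1aJ2 and 387, 813 and 654 in aN1aN2, a change of 2.35 (SE 0.42, adjusted p = 0.00110), or 1.53 without RW 1 and 3.24 without RW 2. EC3 held 82.5, 109 and 95.4 CPM in RW, 80.1 and 93.5 in aJ1aJ2 and 328, 273 and 364 in aN1aN2, a change of 1.72 (SE 0.21, adjusted p = 2.26e-04). Control levels were already higher in these 2 labels than in EC1. Fibroblasts gave 10.5, 27.4 and 34.8 CPM in RW, 35.8, 3.75 and 40.9 in aJ1aJ2 and 199.7, 246 and 162 in aN1aN2 and 3.09 (SE 0.50). Th1 was less regular, at 11.6, 10.7 and 12.6 CPM in RW, 11.2, 9.22 and 24.8 in aJ1aJ2 and 20.7, 52.2 and 22.8 in aN1aN2: aN1aN2 2 stood far above the other samples, the log2 difference from RW was 1.47, and without aN1aN2 2 it was 0.86.

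Zbtb16 (ENSMUSG00000066687, chr9:48654297-48836222, minus strand), the PLZF gene, was higher in aN1aN2 in fibroblasts and in EC1 to EC3, and also varied among controls. Fibroblast levels were 24.4, 50.2 and 47.8 CPM in RW, 29.1, 108 and 69.8 in aJ1aJ2 and 342, 583 and 371 in aN1aN2. The aN1aN2 samples were well separated, at 3.38 (SE 0.37, adjusted p = 3.62e-06) against RW and 2.59 (SE 0.31, adjusted p = 1.53e-05) against aJ1aJ2, the only label in which the latter comparison passed. EC1 held 3.29, 6.09 and 26.9 CPM in RW, 3.23, 70.5 and 38.6 in aJ1aJ2 and 108, 101 and 113 in aN1aN2. RW 3 lay above RW 1 and RW 2, aJ1aJ2 1 lay with the controls, and aN1aN2 exceeded all 6, at 2.95 (SE 0.53, adjusted p = 3.73e-04) by edgeR, or 4.51 without RW 3. EC3 gave 9.37, 7.49 and 12.6 CPM in RW, 59.5 and 39.5 in aJ1aJ2 and 98.4, 60.6 and 152 in aN1aN2 and 3.35 (SE 0.43, adjusted p = 3.35e-04), with the samples kept in each of the 3 groups above the one before. The order of RW and aJ1aJ2 there rests on aJ1aJ2 3 and 4: aJ1aJ2 1, left out for its 17 cells, had 2 UMIs, or 8.10 CPM before scaling, within the RW range. In EC2, where an earlier result was in view and no test is given, levels were 4.77 and 0 CPM in RW, 84.2 and 93.0 in aJ1aJ2 and 167, 111 and 115 in aN1aN2. The aN1aN2 samples held 31 UMIs and the controls 1, a ratio of 44.4 (95% counting interval 7.40 to 1810), and RW 3 held 3 UMIs in its 15 cells. EC4 ranged from 0 to 86.2 CPM in RW and from 59.2 to 86.7 in aN1aN2, a log2 difference of 1.05 (SE 0.68), given without a test because the gene met the low-count cutoff there only with the aN1aN2 samples. In Th1 it was at 8.13, 10.0 and 18.8 CPM in RW, 17.6, 33.2 and 23.7 in aJ1aJ2 and 56.6, 68.5 and 50.4 in aN1aN2, a log2 difference from RW of 2.19 without overlap.

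Klf9 (ENSMUSG00000033863, chr19:23141226-23168134, plus strand) was higher in aN1aN2 in fibroblasts, EC1 and EC4, with smaller changes than Ddit4 there and from higher control levels than Ddit4. In fibroblasts it was at 321, 473 and 539 CPM in RW, 467, 437 and 508 in aJ1aJ2 and 1198, 1057 and 923 in aN1aN2, or 1.27 (SE 0.20, adjusted p = 2.07e-04) by edgeR. EC1 gave 204, 226 and 286 CPM in RW, 290.4, 332 and 324 in aJ1aJ2 and 551, 585 and 636 in aN1aN2 and 1.30 (SE 0.13, adjusted p = 3.39e-07). Here aJ1aJ2 also lay above RW without overlap, at 0.41 (SE 0.13, adjusted p = 0.141), which did not pass. EC4 held 192, 259 and 219 CPM in RW, 338, 267 and 253 in aJ1aJ2 and 515, 443 and 528 in aN1aN2, a change of 1.19 (SE 0.21, adjusted p = 1.48e-04). Th3 held 45.5, 106 and 39.7 CPM in RW, 131, 101 and 85.4 in aJ1aJ2 and 186, 153 and 273 in aN1aN2, a change of 1.75 (SE 0.44, adjusted p = 0.0470). The Th3 call was lost without RW 1, RW 2, RW 3, any aJ1aJ2 sample, aN1aN2 1 or aN1aN2 3, with adjusted p of 0.0553 to 0.282. The change did not pass in EC2, at 0.54 (SE 0.23, adjusted p = 0.138), or in EC3, at 0.51 (SE 0.22, adjusted p = 0.200). Th1 was at 122, 133 and 104 CPM in RW, 131, 164 and 154 in aJ1aJ2 and 276, 371 and 308 in aN1aN2, with every aN1aN2 sample above the other 6 and a log2 difference from RW of 1.42.

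Klf15 (ENSMUSG00000030087, chr6:90462576-90475238, plus strand) was the scarcest transcript. Fibroblasts, the label with its highest mean control level by the RW samples kept, held 20.9, 13.7 and 21.7 CPM in RW, 31.3, 40.1 and 47.0 in aJ1aJ2 and 91.3, 168 and 133 in aN1aN2. The groups did not overlap and stood in the order RW, aJ1aJ2, aN1aN2, with a log2 difference of 2.84 (SE 0.36) for aN1aN2 against RW. Th1 showed the same order, at 4.84, 5.35 and 5.80 CPM in RW, 10.7, 24.4 and 17.9 in aJ1aJ2 and 53.8, 70.9 and 62.3 in aN1aN2, and log2 differences from RW of 3.53 for aN1aN2 and 1.80 for aJ1aJ2. In EC1 it rose from 2 UMIs in RW to 17 in aN1aN2, a ratio of 37.8 (95% counting interval 8.97 to 337), with levels of 0, 0.761 and 0.449 CPM in RW, 0, 0.630 and 1.99 in aJ1aJ2 and 13.6, 18.5 and 12.6 in aN1aN2. Elsewhere it did not enter the test against RW: EC2 had 11 UMIs in aN1aN2 against 0 in the 2 RW samples (at least 5.25-fold higher), EC4 had 6 against 0 (at least 1.36-fold), and EC3 had 7.50, 7.49 and 5.02 CPM in RW against 16.4, 12.1 and 13.2 in aN1aN2. Th3 had 26 UMIs in aN1aN2 and 2 in RW, a ratio of 32.0 (interval 8.01 to 278). In S, aJ1aJ2 3 and 4 held Klf15 at 97.4 and 84.3 CPM, above fibroblasts in aJ1aJ2, and the 2 RW samples kept held none.

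Sgk1 (ENSMUSG00000019970, chr10:21882184-21999903, plus strand), the gene with the palindrome printed above, behaved differently by label. Fibroblasts held little in controls and more in aN1aN2, at 38.4, 22.8 and 34.8 CPM in RW, 35.8, 42.6 and 47.0 in aJ1aJ2 and 165, 312 and 85.7 in aN1aN2, a change of 2.68 (SE 0.38, adjusted p = 5.59e-05) by edgeR. In EC4 it was at 309, 272 and 282 CPM in RW, 298, 195 and 352 in aJ1aJ2 and 638, 618 and 457 in aN1aN2, a change of 1.01 (SE 0.22, adjusted p = 0.00155). Both were free of overlap. In EC1, where its control level was highest, it was at 529, 529.8 and 544 CPM in RW, 537, 309 and 376 in aJ1aJ2 and 589.7, 667 and 428 in aN1aN2, and the change of 0.08 (SE 0.17, adjusted p = 0.804) did not pass, with overlapping groups. EC2 had 372 and 422 CPM in RW, 199 and 477 in aJ1aJ2 and 617, 677 and 769 in aN1aN2, which did not pass against RW at 0.78 (SE 0.31, adjusted p = 0.101) and passed against aJ1aJ2 at 0.99 (SE 0.29, adjusted p = 0.0382). That last change was 1.73 without aJ1aJ2 4 and ranged from 0.47 to 1.73 over the alternatives. The call was lost without aJ1aJ2 3 or any aN1aN2 sample, with DESeq2, with at least 10 cells per sum and with only the 2 groups compared. EC3 gave 0.33 (SE 0.25, adjusted p = 0.515). In Th1 the levels were 41.3, 35.4 and 31.5 CPM in RW, 13.9, 22.6 and 56.0 in aJ1aJ2 and 27.7, 54.6 and 18.0 in aN1aN2, overlapping across all groups.

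Errfi1 (ENSMUSG00000028967, chr4:150853919-150868892, plus strand), the MIG6 gene, was higher in aN1aN2 in F and in EC1 to EC3. F held 272, 224 and 169.5 CPM in RW, 188, 97.6 and 215 in aJ1aJ2 and 764, 1322 and 676 in aN1aN2, and the aN1aN2 samples were all above the others, at 2.06 (SE 0.29, adjusted p = 5.64e-05) by edgeR. EC1 gave 4.60, 6.09 and 8.08 CPM in RW, 21.0, 7.56 and 10.6 in aJ1aJ2 and 54.2, 50.3 and 25.2 in aN1aN2 and 2.76 (SE 0.39, adjusted p = 2.68e-05). EC3 gave 37.5, 54.3 and 40.2 CPM in RW, 36.6 and 35.95 in aJ1aJ2 and 180.4, 84.8 and 198 in aN1aN2 and 1.75 (SE 0.32, adjusted p = 0.00387). In EC1 and EC3 no aN1aN2 sample overlapped with RW, though aN1aN2 3 in EC1 lay close to aJ1aJ2 1. EC2 levels were 71.6 and 8.45 CPM in RW, 64.6 and 23.2 in aJ1aJ2 and 199, 123 and 558 in aN1aN2, a log2 difference of 2.42 (SE 0.67), or 4.79 without RW 1, counted as a call except without RW 2 (1.83) or without aN1aN2 3 (1.76), the highest sample. In the smooth muscle label SM only RW 3 held 20 cells, and aN1aN2 was compared with aJ1aJ2 alone. There Errfi1 was at 104 CPM in RW, 131 and 205 in aJ1aJ2 and 575, 336 and 389.5 in aN1aN2, a change of 1.35 (SE 0.38, adjusted p = 0.0276), and Nr3c1 at 134 CPM in RW, 174 and 256 in aJ1aJ2 and 87.5, 73.1 and 32.5 in aN1aN2, a change of -1.70 (SE 0.46, adjusted p = 0.0228). The Errfi1 call was lost without aJ1aJ2 3, aN1aN2 1 or aN1aN2 3 (adjusted p of 0.0953 to 0.302) and the Nr3c1 call without RW 3, aJ1aJ2 4 or any aN1aN2 sample (0.0541 to 0.456). In Th1 Errfi1 was at 33.2, 41.4 and 38.7 CPM in RW, 36.3, 41.7 and 49.1 in aJ1aJ2 and 71.3, 94.3 and 89.9 in aN1aN2, a log2 difference from RW of 1.18 without overlap.

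Whether a change in aN1aN2 differed between cell labels was tested directly, by the interaction of label and group between EC1 and each other label with the sample as a block in edgeR. Of all genes tested this way 1.59% were called, and 8 pairs of these genes were, or 5 without aN1aN2 3. Tsc22d3 rose more in fibroblasts than in EC1, by 1.91 (SE 0.24, adjusted p = 1.58e-06) on the log2 scale, and Sgk1 did too, by 2.43 (SE 0.35, adjusted p = 9.37e-06). Fkbp5 rose less in fibroblasts than in EC1, with a difference of -2.62 (SE 0.36, adjusted p = 5.69e-06). Of all genes 5.67% were called in F, 1.36% in EC2, 2.39% in EC3 and 0.493% in EC4. Sgk1 also rose more in EC4 than in EC1, by 0.93 (SE 0.22, adjusted p = 0.0187), lost without RW 1 (0.0701), RW 3 (0.114), aN1aN2 1 (0.122) or aN1aN2 3 (0.0737). Ddit4 rose less in EC3 than in EC1, with a difference of -2.54 (SE 0.25, adjusted p = 2.19e-06). In EC2 its difference was -2.01 (SE 0.37, adjusted p = 2.46e-04) and was lost without RW 2 (-1.12, adjusted p = 0.478), the EC2 control with the higher Ddit4 level, and was -2.83 without RW 1. Klf9 differed by -0.94 (SE 0.25, adjusted p = 0.0273) in EC2, lost without RW 2 (0.324), aN1aN2 2 (0.179) or aN1aN2 3 (0.0587). Its difference in EC3 was -0.81 (SE 0.21, adjusted p = 0.0410), lost without any 1 of RW 1, RW 2, aJ1aJ2 3, aJ1aJ2 4 or the aN1aN2 samples (adjusted p of 0.0733 to 0.153). The larger Ddit4 change in EC4 than in EC1, by 2.11 (SE 0.57, adjusted p = 0.0633), and the Nr3c1 difference in F, at -0.83 (SE 0.29, adjusted p = 0.0865), did not pass.

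The share of cells with a UMI was examined with every cell thinned to 1000 UMIs, because cells of aN1aN2 were shallower. In EC1 thinned cells with Tsc22d3 were 30.9 to 40.3% in RW and 65.3 to 73.6% in aN1aN2, and unthinned shares were 80.6 to 86.8% and 90.6 to 94.4%. For Fkbp5 the thinned shares were 2.09 to 7.73% and 41.7 to 45.3%, against 15.7 to 28.6% and 73.5 to 80.0% before thinning. For Ddit4 they were 2.76 to 4.17% and 45.3 to 52.0%, against 18.1 to 21.5% and 75.2 to 87.5%. In fibroblasts thinned cells with Tsc22d3 went from 17.1 to 37.5% in RW to 69.4 to 84.6% in aN1aN2, and unthinned cells from 39.5 to 73.1% to 85.4 to 95.7%. In EC4 thinned cells with Ddit4 went from 0 to 3.03% to 54.7 to 68.3%, and unthinned cells from 0.917 to 3.17% to 57.3 to 68.1%. In Th1 thinned cells with Tsc22d3 went from 3.57 to 5.59% to 19.5 to 33.9%, and unthinned cells from 35.7 to 53.4% to 68.0 to 79.0%. As background, Eryth2 cells, which should lack these transcripts and had a median of 7944.5 UMIs against 3994 in EC1, held Tsc22d3 in at most 0.709% of thinned and 3.50% of unthinned cells. In all, 13 Tsc22d3 UMIs were counted in Eryth2 in aN1aN2 and 0 in RW. Thinning left out 1 of 661 RW cells and none of 264 aN1aN2 cells in EC1, 11 of 120 and 15 of 121 in F, and 142 of 268 and 219 of 442 in EC4. Intervals cover counting error only.

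**Figure D3:**
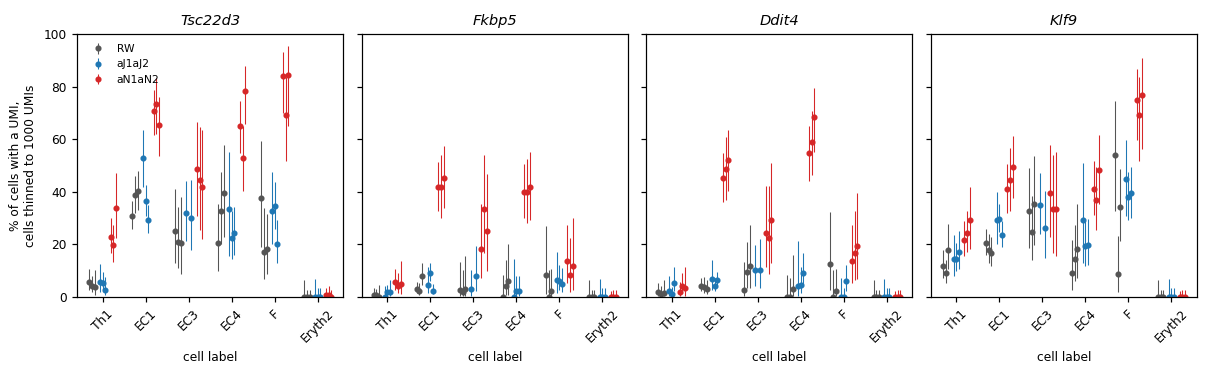
Share of cells with at least 1 UMI of Tsc22d3, Fkbp5, Ddit4 and Klf9 (vertical axis, percent) in 6 cell labels, per sample, after each cell was thinned to 1000 UMIs; bars are 95% exact binomial intervals. In EC1, EC4 and F the red aN1aN2 points of Tsc22d3 lie above the other samples, while Eryth2 stays at or below 0.709% for this gene.

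RNA from other cells was measured beside these changes. The thyroglobulin level of a label, as a share of that in Th1 of the same sample, multiplied by a gene's Th1 level gives the amount that thyrocyte carry-over could contribute. In aN1aN2 this was at most 0.337% of the Tsc22d3 level in EC1, 0.286% for Fkbp5, 0.0881% for Ddit4, 4.03% for Errfi1 and 7.71% for Klf15. It was at most 0.894% for any of the 9 genes in F and 12.2% for Klf15 in EC4. In Th3 it reached 70.6% for Tsc22d3, 174% for Klf9 and 607% for Zbtb16, and Th3 held thyroglobulin at 33.4 to 151% of the Th1 level. In Th3, levels of these genes and carried-over thyrocyte RNA cannot be told apart. Summed thyrocyte markers in EC1 were 727 to 1003 CPM in RW against 1329 to 1961 in aN1aN2, with all 9 detected. C cell markers in EC1 were 48.1 to 73.1 and 169 to 217 CPM, with 1 of 4 at 0 in all samples, and parathyroid markers 48.0 to 93.4 and 227 to 331, with 2 of 4 at 0. In the same label macrophage markers were 94.4 to 243 CPM in RW against 5.30 to 12.6 in aN1aN2, and endothelial markers 14604 to 16119.6 and 10752 to 11223. In EC3 smooth muscle markers were 2645 to 4162 CPM in RW against 767 to 957 in aN1aN2, and thyroglobulin in RW 3 was 6.72% of its Th1 level. In F erythroid markers were 109 to 292 CPM in RW against 861 to 43478 in aN1aN2. The part of these cells in the results was not tested.

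Labels with too few aN1aN2 cells for the test are given as values. In the macrophage label M, the 3 aN1aN2 samples had 9, 3 and 10 cells and Tsc22d3 levels of 2400, 3495 and 938 CPM, without TMM scaling. With the cells of a group pooled, M held Tsc22d3 at 209.7 CPM in RW (95% counting interval 176 to 248), 256 in aJ1aJ2 (218 to 297) and 1521 in aN1aN2 (1285 to 1787). In the Schwann label S the aN1aN2 samples had 19, 14 and 4 cells. Lowering the minimum to 10 cells brought 2 of them into the test, and Tsc22d3 was then called higher than in RW by edgeR at 3.16 (SE 0.47, adjusted p = 0.0055), while Klf9 was not called at 1.86 (SE 0.65, adjusted p = 0.172), where 1.13% of all genes were called. Against aJ1aJ2, where 0.141% were called, Tsc22d3 at 2.46 (SE 0.51, adjusted p = 0.0758) and Klf9 at 1.41 (SE 0.70, adjusted p = 0.611) were not called. Ddit4 met the low-count cutoff in S only through aN1aN2 and is given without a p-value, at log2 differences of 3.28 from RW and 4.25 from aJ1aJ2. In the T cell label T1 under the same minimum none of these genes was called against RW (0.560% of all genes were): Tsc22d3 was at 1.09 (SE 0.43, adjusted p = 0.294) and Nr3c1 at 0.91 (SE 0.36, adjusted p = 0.291). Against aJ1aJ2, where 4.82% of all genes were called, Tsc22d3 and Nr3c1 were not. Fkbp5 met the cutoff in T1 only through aN1aN2, with log2 differences of 2.11 from RW and 1.82 from aJ1aJ2. Th2, with 39, 49 and 49 cells in RW, aJ1aJ2 and aN1aN2, held Tsc22d3 at 63.6, 218 and 453 CPM with the cells of a group pooled. T2 had no aN1aN2 cells, and P, a label of 77 cells, held it at 67.3, 63.3 and 117 CPM in the 3 groups. Pooled values have counting error only and no replicate check.

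Few differences were called after the ligand blockade. Of 51 pairs tested in 9 labels, 2 were called higher in aJ1aJ2 than in RW and 0 lower by edgeR, where 0.677% of all genes were called, 0.318% higher and 0.359% lower. At an unadjusted p under 0.05 there were 10 of the 51 pairs, 9 higher and 1 lower, against 9.24% of all genes, 4.70% higher and 4.55% lower. DESeq2 called none at an adjusted p under 0.05. Ddit4 in EC4, with levels given above and 0.903% of all genes called there, was higher at 2.37 (SE 0.57, adjusted p = 0.0441). This call was lost without RW 1 (0.285), RW 3 (0.177), aJ1aJ2 3 (0.0960), aJ1aJ2 4 (0.323) or aN1aN2 3 (0.0524). Zbtb16 in EC2, where 1.91% of all genes were called, is a description: 74 UMIs in aJ1aJ2 3 and 4 against 1 in RW 1 and 2, a ratio of 29.2 (95% counting interval 5.09 to 1171). This pair is 1 of the 2 counted, and it left the count without RW 1 or with sums of 10 to 19 cells included. Those sums add RW 3, with 3 Zbtb16 UMIs in 15 cells, and aJ1aJ2 1, with 0 in 16 cells. Below the threshold were Fkbp5 in EC3 at 1.98 (SE 0.37, adjusted p = 0.0858), Zbtb16 in EC3 at 2.36 (SE 0.46, adjusted p = 0.0958) and in EC1 at 1.65 (SE 0.51, adjusted p = 0.120), and Tsc22d3 in F at 0.87 (SE 0.23, adjusted p = 0.120). In F all 3 aJ1aJ2 samples exceeded all 3 RW samples for Tsc22d3. In Th1, without a test of these genes and with 0.612% of all genes called, Tsc22d3 (log2 difference 0.47) and Klf15 (1.80) lay above RW without overlap, and the other 7 overlapped. Of all genes tested in Th1, 7.74% lay above RW without overlap in this comparison.

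The same comparison was made within each series. Within series A, which has 1 sample per group, Zbtb16 in aJ1aJ2 differed from RW by -2.47 in EC1 and -5.46 in EC4 on the log2(CPM + 2) scale. Within series B, with 2 samples per group, the same differences were 3.05 and 3.20. The EC4 values are near the floor: aJ1aJ2 1 had no Zbtb16 UMI there among 51753, nor had 1 of the 2 RW samples of series B. Their size therefore depends on the 2 added before the log. Thyrocytes and fibroblasts split the same way for Zbtb16, at -0.08 against 1.45 in Th1 and -0.68 against 1.26 in F. For Tsc22d3 they were 0.47 in series A against -0.55 in series B in EC1, and 1.19 against -0.92 in EC4. Its direction was shared in F (0.49 and 1.12) and Th1 (0.88 and 0.25). Ddit4 in EC4 was higher in both, by 2.65 and 2.00, and so was Klf15 in Th1, by 0.70 and 1.69. In the macrophage label M, Ddit4 (3.86 and 1.68), Fkbp5 (2.35 and 1.84) and Klf9 (1.59 and 0.20) were higher in both and Sgk1 (-3.11 and -0.52) lower. RW levels of Ddit4 and Fkbp5 there were at most 5.32 and 13.3 CPM. Over the 8 labels with both series, 52 of 72 pairs had a difference other than 0 in both series, and the 2 directions differed in 28 of them. Among those that passed the low-count filter they differed in 21 of 38, and among all genes tested in 48.2%. The number of calls moved with the library left out: 7 without RW 3, 4 without aJ1aJ2 1, 3 without RW 2, 1 without aJ1aJ2 3, aJ1aJ2 4 or aN1aN2 3, and 0 without RW 1. Calls over all genes moved too, from 243 of 35903 in the main fit to 1502 of 39201 without RW 3, 524 of 37874 without aJ1aJ2 1 and 160 of 37295 without RW 2. They were 104 of 38939 without aJ1aJ2 3, 113 of 40815 without aJ1aJ2 4, 189 of 39693 without aN1aN2 3 and 152 of 38619 without RW 1. Series B alone gave 7 calls, where 806 of 40623 over all genes were called. A fit with series as a term gave 3, where 1074 of 33669 over all genes were called.

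**Figure D4:**
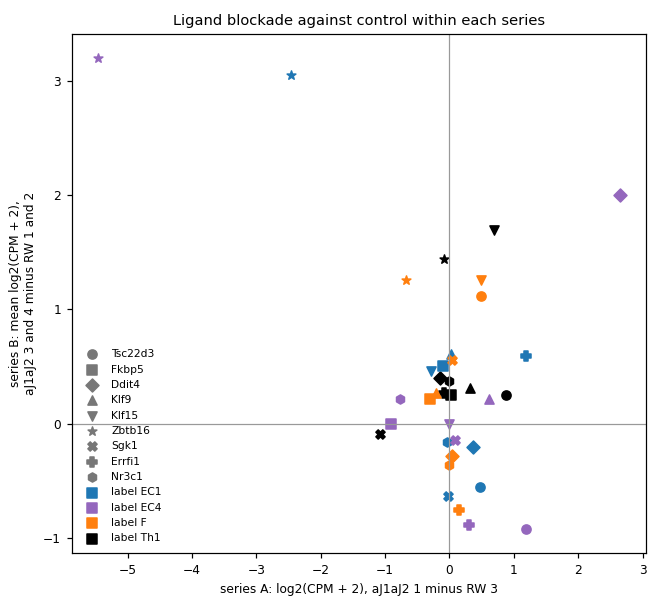
Difference of aJ1aJ2 from RW in log2(CPM + 2), within series A on the horizontal axis (1 sample per group) and within series B on the vertical axis (2 per group), for the 9 genes (marker shapes) in 4 labels (colours). Points at the upper left and lower right changed direction between series, among them Zbtb16 in EC1 (-2.47 and 3.05) and EC4 (-5.46 and 3.20). Both EC4 values include a sum with no Zbtb16 UMI.

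Both blockades were also compared with each other. Of 49 pairs tested in 7 labels, 29 were higher in aN1aN2 than in aJ1aJ2, 4 were lower and 16 were not called by edgeR, where 9.77% of all genes were called, 4.92% higher and 4.85% lower. By label 13.5% of all genes were called in EC1, 10.5% in EC2, 1.27% in EC3, 17.2% in EC4, 16.0% in F, 4.05% in SM and, where these genes are given without a test, 22.3% in Th1. In 7 of the 33 calls, those of the same pairs as against RW other than Tsc22d3 in Th3, the gene met the low-count cutoff only through aN1aN2, and no p-value is given. Both comparisons of aN1aN2 use the same aN1aN2 samples, so they are not independent. In fibroblasts all 9 genes were called, for example Tsc22d3 at 2.57 (SE 0.22, adjusted p = 4.07e-07) and Errfi1 at 2.49 (SE 0.29, adjusted p = 9.05e-06). In EC1 Ddit4 was at 4.28 (SE 0.20, adjusted p = 6.71e-12) and Fkbp5 at 3.36 (SE 0.21, adjusted p = 3.62e-10). In EC4 their log2 differences were 3.90 (SE 0.26) and 3.42 (SE 0.27). Zbtb16 did not pass in EC1 (1.30, adjusted p = 0.0772) or EC3 (1.00, adjusted p = 0.252), where aJ1aJ2 3 and aJ1aJ2 4 were themselves high, and in EC2 its log2 difference was 0.59, given without a test. In EC3, with 2 aJ1aJ2 samples, Tsc22d3 at 1.64 (SE 0.22, adjusted p = 8.95e-04) was lost without aJ1aJ2 3 (0.0512) or aJ1aJ2 4 (0.0695), and Ddit4 at 1.88 (SE 0.25, adjusted p = 7.41e-04) without aJ1aJ2 3 (0.0565). Errfi1 in EC3, at 2.04 (SE 0.38, adjusted p = 0.0136), was lost without aJ1aJ2 3, aJ1aJ2 4 or aN1aN2 3 (adjusted p of 0.0756 to 0.217), and in EC2 its log2 difference of 2.63 (SE 0.58), or 3.44 without aJ1aJ2 3 and 1.99 without aJ1aJ2 4, was not counted as a call without aN1aN2 3 (1.96). In Th3 Klf9 did not pass at 0.96 (adjusted p = 0.331), and Tsc22d3, which met the low-count cutoff only with the aN1aN2 samples, had a log2 difference of 2.04.

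A further list of 41 symbols of genes often given as glucocorticoid targets, drawn up with these results known, was counted in the same fits. Its symbols Ctgf and Ccn2 name the same gene. In aN1aN2 against RW, 21 of 30 tested were higher and 0 lower in EC1 (17.8% of all genes called there by edgeR, 8.83% higher). The largest changes were in Angptl4, an inhibitor of lipoprotein lipase, with 47 UMIs against 1 (ratio 209, 95% counting interval 35.7 to 8431), Gpx3, a secreted glutathione peroxidase (4.42, SE 0.87, or 3.16 and not counted as a call without aN1aN2 2), the cell cycle inhibitor Cdkn1a (2.75, SE 0.29, adjusted p = 4.68e-07) and the stress protein gene Sesn1 (2.40, SE 0.18, adjusted p = 4.78e-09), and Angptl4 and Gpx3 met the low-count cutoff only through aN1aN2. In F, where 19.8% of all genes were called, 21 of 29 were higher and 1, the plasminogen activator gene Plat, was lower (-1.85, SE 0.32, adjusted p = 4.28e-04). The counts higher were 14 of 20 in EC2 (8.85% of all genes were higher there), 14 of 29 in EC3 (3.51%), 13 of 20 in EC4 (11.2%) and 5 of 15 in Th3 (2.49%), with none of the list lower. The median log2 change of the list was 1.498 in EC1 and 1.541 in F, where the medians of all genes were -0.01 and 0.01. Over the 8 labels 88 of 146 pairs tested were higher and 1 was lower, and 22 of these 89 calls met the cutoff only through aN1aN2. In aJ1aJ2 against RW 6 of 181 pairs were higher and 3 lower, beside 0.318% and 0.359% of all genes. A second list held 20 genes of receptor chaperones, cofactors and ligand supply. Of 18 tested in EC1, 4 were higher and 3 lower in aN1aN2 than in RW. Those higher included the phosphatase gene Ppp5c (1.08) and the coactivator genes Ncoa2 (0.93) and Ep300 (0.53), and the chaperone genes Hsp90aa1 (-0.64), Hsp90ab1 (-0.52) and Fkbp4 (-0.52) were lower. Of these the Ppp5c and Hsp90ab1 calls held without any 1 library. The Ncoa2 call was lost without RW 2, aN1aN2 1 or aN1aN2 3 (adjusted p of 0.0555 to 0.165), that of Ep300 without RW 1, RW 3, aJ1aJ2 3, aJ1aJ2 4 or any aN1aN2 sample (0.0513 to 0.222), that of Hsp90aa1 without RW 1, RW 2, aN1aN2 2 or aN1aN2 3 (0.0562 to 0.116) and that of Fkbp4 without RW 1, RW 2 or any aN1aN2 sample (0.0543 to 0.155). Over the 8 labels 8 of 83 pairs tested in this list were higher and 9 lower, beside the 14.5% of all genes called. These 17 calls became 11 without RW 1, 10 without RW 2, 8 without aN1aN2 2 and 10 without aN1aN2 3. Hsp90ab1 was also lower in EC2, EC4 and F. In F Hsd11b1, whose enzyme regenerates active glucocorticoid, was higher at 1.24 (SE 0.26, adjusted p = 0.00198).

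Across 104 sums of 15 labels, levels on the log2(CPM + 10) scale were centred within each label and correlated with those of Tsc22d3 over 8960 genes, as a description of likeness. The 5 genes most like it outside the 9 were 2410006H16Rik (r = 0.77), Cebpb (0.75), Pim1 (0.75), Cebpd (0.74) and Pnpla2 (0.73). Cebpb and Cebpd encode C/EBP transcription factors, Pim1 a kinase and Pnpla2 a triglyceride lipase. With the mean of the 9 genes, the highest were Pnpla2 (0.85), Bnip3 (0.82), Cebpd (0.80), Arl4d (0.80) and Slc10a6 (0.80). Nr3c1 itself had r = -0.27 with that mean. The sums share libraries, and the aN1aN2 samples share a series and a lower depth.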

How the data were processed

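Single-cell RNA sequencing of mouse thyroid was analysed from the UMI counts per gene and cell that the authors deposited, with their cell labels. Cell Ranger and the GRCm38 build are named in the submitters' processing notes, with versions not given in the sources used here. In 2619 lines of the annotation the columns were shifted and were read accordingly. No doublet caller was run.

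Counts of the authors' cells were summed per sample and label. Sums of under 20 cells were left out, and testing a label needed at least 2 remaining samples per group. Each label was fitted with edgeR 4.0.16 in R 4.3.3 (filterByExpr, TMM, quasi-likelihood test on 3 group means), with Benjamini-Hochberg adjustment over all genes tested in the label and a threshold of 0.05. The interaction fit had the sample as a block. Alternatives were DESeq2 1.42.0, another scaling, other minimums and filters, subsets of samples and leaving out each sample. The genes and lists were chosen with earlier results of these data known. All labels come from the same libraries, and Th1 and Zbtb16 in EC2 are given without p-values, and Zbtb16 in EC2 stays in the counts of calls. No p-value is given where a gene met filterByExpr's cutoff (10 UMIs at the median total) only through the group in which it was higher. Every sample is given for each gene in Th1 and in most labels where it passed. In the pathway lists up to 4 genes per direction with the largest changes in EC1 are named; other names were chosen after their values were seen, and a gene that this rule would name is not reported here. Each sample is 1 pool, and p-values measure the spread between pools. The pipeline was tested on simulated data. Gene coordinates are from GENCODE vM21 (GRCm38) and promoters from RefSeq (GRCm38.p6). Counting intervals and floors (3 UMIs) cover counting error only, since molecules within a cell are not replicates.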

Additional observations from a re-analysis of the deposited data

Results flagged for a closer look

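The change of 8 pairs in aN1aN2 against RW differed between EC1 and another label by the edgeR interaction test, given as the log2 change in the other label minus that in EC1. Tsc22d3 (1.91) and Sgk1 (2.43) changed more in F, and Sgk1 also in EC4 (0.93). Fkbp5 changed less in F (-2.62). Ddit4 changed less in EC2 (-2.01) and EC3 (-2.54), and Klf9 changed less in EC2 (-0.94) and EC3 (-0.81). The Sgk1 difference in EC4, the Ddit4 difference in EC2 and both Klf9 differences were lost when single libraries named with them were left out.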

How the results depend on the processing

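In aN1aN2 against RW 35 pairs of a gene and a label were called, and 30 of them were called in each alternative in which the pair was tested. The count was 33 to 39 in most alternatives, 30 with only samples 1 and 2, 14 with at least 50 cells per sum (fewer labels enter) and 32 to 34 with 1 sample left out. In aN1aN2 against aJ1aJ2 24 of 33 calls held in each alternative in which the pair was tested, with 13 calls at 50 cells and 27 to 34 with 1 sample left out. In aJ1aJ2 against RW neither of 2 calls did so: there were 0 with DESeq2, 1 at a minimum of 10 or of 50 cells, 7 with no filter on low counts, 1 with only the 2 groups, 7 with only series B, and 0 to 7 with 1 sample left out. Over all genes that comparison had 243 calls of 35903 tested, and 140 of 35903 with DESeq2, 207 of 33293 at 10 cells and 200 of 18507 at 50 cells. It had 1172 of 163886 with no filter, 158 of 38128 with only the 2 groups, 806 of 40623 in series B, 1074 of 33669 with a series term and 1502 of 39201 without RW 3. Over all genes aN1aN2 against RW had 4187 calls of 28803, or 2413 of 16021 at 50 cells, and against aJ1aJ2 3108 of 31817, or 1861 of 16021 at 50 cells. Of 8 differences between labels 4 held in each alternative in which they were tested, with 1 called at 50 cells, where fewer labels enter, and 5 to 8 with 1 sample left out.

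Alternatives for the 2 gene lists were chosen after seeing the data. The 89 calls of the further targets were 40 at 50 cells and 73 to 99 with 1 sample left out. The 17 calls of the receptor and chaperone list were 9 with DESeq2, 10 at 50 cells and 8 to 17 with 1 sample left out. Among the calls listed here no direction reversed in the alternatives run, which do not include series A alone (1 sample per group). Where no construction is named, the cause was not tested. Where 1 sample of a group is left, it is assumed to vary like the other groups. Few UMIs limit Klf15 and Zbtb16. Some calls given with the libraries that lost them were also lost in other alternatives. Among them were Tsc22d3 and Klf9 in Th3 and Errfi1 in EC2 against RW, and both Klf9 differences between labels. Errfi1 in EC3 against RW was lost only with samples 1 and 2 of RW and aN1aN2 and no block.

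With the replicate block on samples 1 and 2 of RW and aN1aN2 there were 33 calls of the 9 genes and 11 of the receptor and chaperone list, against 30 and 10 in the same 4 samples without the block. Calls over all genes rose as well, with 3860 of 25102 with the block and 3315 of 25102 without it. Deviations of same-numbered samples in EC1 correlated at 0.0014 and 0.011, and those of crossed numbers at -0.0056 and -0.0091. All were near 0, but correlations in 1 label cannot exclude that same-numbered samples were handled together. No paired analysis was possible for aJ1aJ2 against RW because the sample titles number only RW 1 and 2 and aJ1aJ2 3 and 4, and the numbers of RW 3 and aJ1aJ2 1 are names given here.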
